A study of Zostera marina with 23 samples.

Results

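Root was set against female flower in eelgrass, Zostera marina, a flowering plant that lives submerged in seawater. The comparison used 4 root libraries (root_0 to root_3) and 6 female flower libraries (early_0 to early_3, late_0 and late_1) of the 23 libraries sequenced. Shoots taken from the field in winter were planted in seawater tanks in which the water was warmed and the days were lengthened so that they flowered, a treatment common to both groups. The labels name no genotype and no age, and do not say how many shoots went into a library. Of the female libraries, 3 are early and 2 are late under both of their labels, and early_3 is early in its title and late in its tissue label. It is female flower under both, so it was kept. Whether libraries of a tissue came from different plants is not in the labels either, so the spread behind each p-value is that between libraries and may be technical. Of 22733 gene identifiers, 16198 reached a value of 10 in 2 or more of the 10 libraries and were tested.

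Roots of eelgrass anchor the plant in sediment that holds little oxygen, take up ammonium and phosphate from it, and do not photosynthesize. Female flowers are borne on a spadix inside a leaf sheath, where the stigmas catch threadlike pollen carried by the water and the ovules develop into seeds. The deposited tables carry identifiers without names, so no more than 2 genes per direction are described, by identifier, and the labelled tissues were not checked against known marker genes. Gene groups are instead formed by direction and size of difference, by level, by level in leaf and male flower, and by identifier.

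Values are scaled fragments, the sequenced fragments of a gene multiplied by 1 factor per library. Depth was 9298408 to 13332216 fragments in root and 10302367 to 13679078 in female flower. Root_2 had the lowest depth of the 10 libraries and stood apart from the other roots. Across the tested genes, which are not independent replicates, the Pearson correlation of log2(scaled fragments + 1) between root_2 and the other roots was 0.709 to 0.853, against 0.871 to 0.976 among the other 3 roots and 0.904 to 0.970 among the female libraries. Root_2 correlated with leaf libraries at a median of 0.791, and the other roots did so at 0.577. The comparisons of root with female flower are therefore given with and without root_2. Among the leaf libraries, which serve below for levels outside the comparison, leaf_1 correlated with female flower at 0.825 to 0.844 and with the other leaf libraries at a median of 0.697. Leaf values are also given without leaf_1, an alternative chosen after seeing the data.

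The 2 tissues were well separated. Root and female libraries correlated at a median of 0.531, with a range of 0.412 to 0.582, below the lowest correlation within either tissue. The first principal component held 69.2% of the variance and divided root from female flower. The second held 16.0% and spread the roots, with root_0 and root_1 at 1 end and root_2 at the other. The median standard deviation of a gene was 0.545 in log2 among the 4 roots, 0.353 without root_2 and 0.351 among the 6 female libraries.

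**Figure D1:**
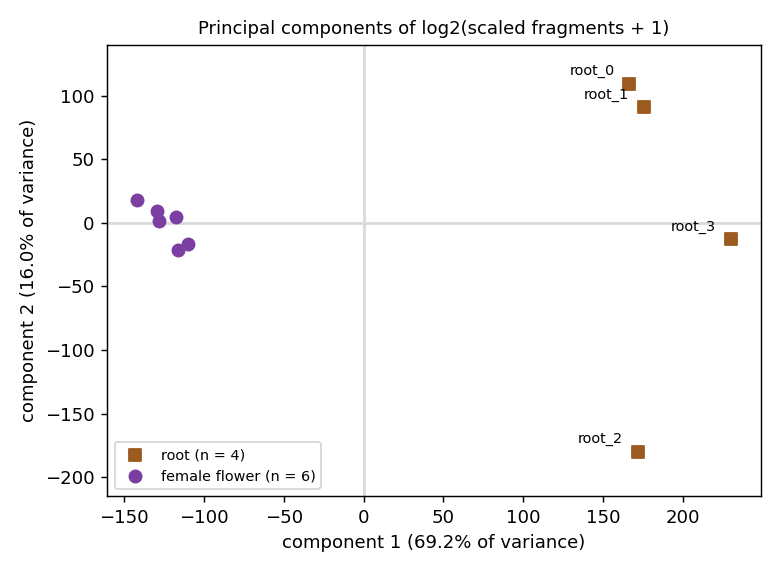
Each point is a library, placed by components 1 and 2 of a principal component analysis of log2(scaled fragments + 1) over the 16198 tested genes, for root (squares, n = 4) and female flower (circles, n = 6). The roots lie at 166 to 230 on the first component and the female libraries at -142 to -110, while root_2 lies at -180 on the second component and root_0 at 109.

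Many genes differed between root and female flower, and the larger differences were more often in the direction of root. At an adjusted p under 0.05 and at least 2-fold (limma, Benjamini-Hochberg adjustment over all tested genes), 3245 genes were higher in root, 20.0% of those tested, and 3814 were lower, 23.5%. Together they made up 43.6%. The median log2 fold change was 2.84 in size among the genes higher in root and 2.23 among those lower in root, beside 1.00 over all tested genes. At 16-fold or more the order turned, with 1070 genes higher and 542 lower in root. At 64-fold there were 477 higher and 167 lower, and at 256-fold 149 higher and 46 lower. Because these are whole organs, fewer cells that use a gene and less of its RNA in each cell cannot be told apart.

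Without root_2, 3428 genes were higher in root, 21.3% of 16112 tested, and 3509 were lower, 21.8%. No gene changed direction between the lists with and without root_2. Of the genes called higher with all roots, 91.2% were called higher without root_2, and of those called lower 86.8% were. Read from the lists without root_2, these shared genes were 86.3% of the higher and 94.3% of the lower. The order turned earlier without root_2, with 2252 genes higher and 1793 lower in root at 4-fold, in place of 2115 and 2171. At 16-fold there were 1208 higher and 443 lower without root_2, and at 64-fold 612 and 148. The steepest class grew on the root side, to 275 genes higher and 47 lower in root at 256-fold, in place of 149 and 46.

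**Figure D2:**
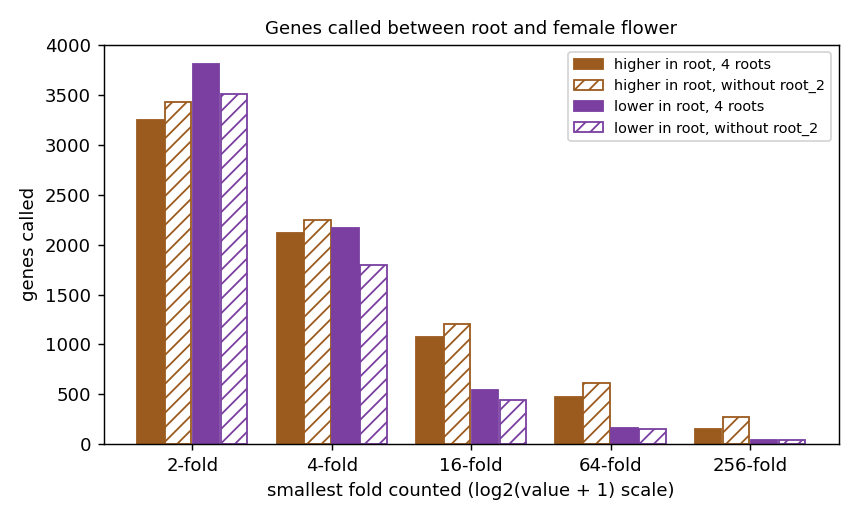
Bars give the number of genes called between root and female flower at or above each fold on the log2(value + 1) scale, for genes higher in root and lower in root, with all 4 roots (filled) and without root_2 (hatched). With all 4 roots more genes were lower than higher in root at 2-fold, 3814 against 3245, and from 16-fold upward more were higher. Without root_2 more were higher from 4-fold upward, with 2252 against 1793 there.

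The libraries themselves separated for a similar number of genes. All 4 roots lay above all 6 female libraries for 3410 genes, 21.1% of those tested, and below all of them for 3774, 23.3%. Of the called genes, 2494 of the 3245 higher in root and 3149 of the 3814 lower in root had groups that did not overlap. With the 3 roots other than root_2, 4539 of 16112 tested genes lay wholly above and 4397 wholly below. Of the called genes, 3192 of the 3428 higher and 3242 of the 3509 lower did not overlap. There are 84 orderings of 3 roots and 6 female libraries and 210 of 4 and 6, so full separation comes more easily with 3 roots. The larger counts are therefore not read as a clearer separation. A 95% confidence interval of the difference that lay within 2-fold on both sides was found for 4127 genes, 25.5% of those tested, and for 26.5% without root_2. For a further 30.9% that were not called, the interval reached past 2-fold, so a difference of that size was neither shown nor bounded away.

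Some called genes had no fragment at all in the other tissue. Such genes can pass the filter only through the tissue in which they are high, so their counts are a description and the directions were not compared. Of the 3245 genes higher in root, 288 had 0 fragments in all 6 female libraries, and 149 of these averaged at least 100 scaled fragments in root. Of the 3814 genes lower in root, 53 had 0 fragments in all 4 roots, and 12 of these averaged at least 100 in female flower. Without root_2 there were 296 such genes higher in root, 168 of them at 100 or more, and 60 lower in root, 14 of them at 100 or more. A count of 0 allows up to 3 fragments per library, a mean floor of 1.92 scaled fragments in female flower and 2.31 in root, so among these genes, listed at 0 in every library of 1 tissue, the largest differences were at least 4666-fold higher in root and at least 1194-fold lower in root. These floors cover counting error only.

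Zosma1g03620 had the largest fold of the genes higher in root that passed the rule for naming. That rule asked for a call with and without root_2 and for groups that do not overlap. Each named gene also passed the filter only through the tissue in which it is high. The separation and the calls of the named genes therefore follow from their choice, and their values and p-values are a description. It stood at 14894 scaled fragments in root_0, 15095 in root_1, 612 in root_2 and 2432 in root_3, and at 0 in all 6 female libraries. Every root lay above every female library, and root_2 was the lowest root. Limma put the log2 fold change at 12.06 (SE 0.812, adjusted p = 1.82e-06) with all roots and at 13.00 (SE 0.539, adjusted p = 7.49e-08) without root_2, values that the pseudocount sets in part because the female libraries are at 0. Against the floor the gene was at least 4310-fold higher in root, at least 5640-fold without root_2 and at least 319-fold in root_2 alone. It was low in the tissues outside the comparison, at 4.06 to 15.6 in leaf (median 10.8, n = 6), or 6.79 to 15.6 without leaf_1, and 0 to 48.6 in male flower (median 0, n = 7).

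Zosma902g00010 showed much the same arrangement. Its scaled fragments were 6324 in root_0, 11298 in root_1, 430 in root_2 and 8135 in root_3, and 0 in all 6 female libraries. The groups did not overlap, and root_2 was again lowest, here with the other 3 roots within a factor of 2 of each other. The limma estimate was 11.96 in log2 (SE 0.786, adjusted p = 1.56e-06) with all roots and 13.03 (SE 0.249, adjusted p = 1.93e-09) without root_2. The gene was at least 3416-fold higher in root against the floor, and at least 4480-fold without root_2 and at least 224-fold in root_2 alone. Leaf libraries held 2.32 to 12.8 (median 6.66, n = 6), or 5.66 to 12.8 without leaf_1, and male flower 0 to 23.5 (median 0, n = 7).

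Zosma2g00860 had the most negative log2 fold change among the genes lower in root that passed the rule for naming. It had 0 fragments in root_0, root_1 and root_3 and 1 fragment in root_2, which makes 0.855 scaled fragments there. The female libraries held 531 to 9857 scaled fragments with a median of 2959, the highest in early_2 and the lowest in early_3. The ratio of female flower to root was 16880, with a counting interval of 3029 to 666678 that rests on that single fragment. Without root_2, where all roots were at 0, the gene was at least 1620-fold lower in root. Its log2 fold change was -11.11 (SE 0.653, adjusted p = 7.01e-07, limma), and -11.33 (SE 0.723, adjusted p = 1.42e-06) without root_2. It was at 0.997 to 44.7 in leaf (median 1.81, n = 6), where leaf_1 was highest and the other 5 reached no more than 3.39, and 3.14 to 299 in male flower (median 10.2, n = 7).

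Zosma112g00400 was also nearly absent from root, with 1 fragment in root_3, or 0.814 scaled fragments, and 0 in the other 3 roots. In female flower it ranged from 52.6 in early_2 to 11135 in late_0, with a median of 5082. Every female library lay above every root, but the female libraries spread over a wider range than for Zosma2g00860. The ratio of female flower to root was 24690, with a counting interval of 4432 to 975400, and without root_3 the gene was at least 2219-fold lower in root. The limma estimate was -11.01 in log2 (SE 1.29, adjusted p = 7.00e-05) with all roots and -10.94 (SE 1.48, adjusted p = 2.17e-04) without root_2. Unlike Zosma2g00860 it was abundant in male flower, at 128 to 18540 scaled fragments (median 1610, n = 7), and low in leaf, at 0 to 87.0 (median 2.49, n = 6), or 0 to 49.5 without leaf_1. With precision weights set from the fitted fragment count of each value, an alternative chosen after seeing the data, its log2 fold change was -12.22 and its adjusted p 0.0678 (limma with voom weights).

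**Figure D3:**
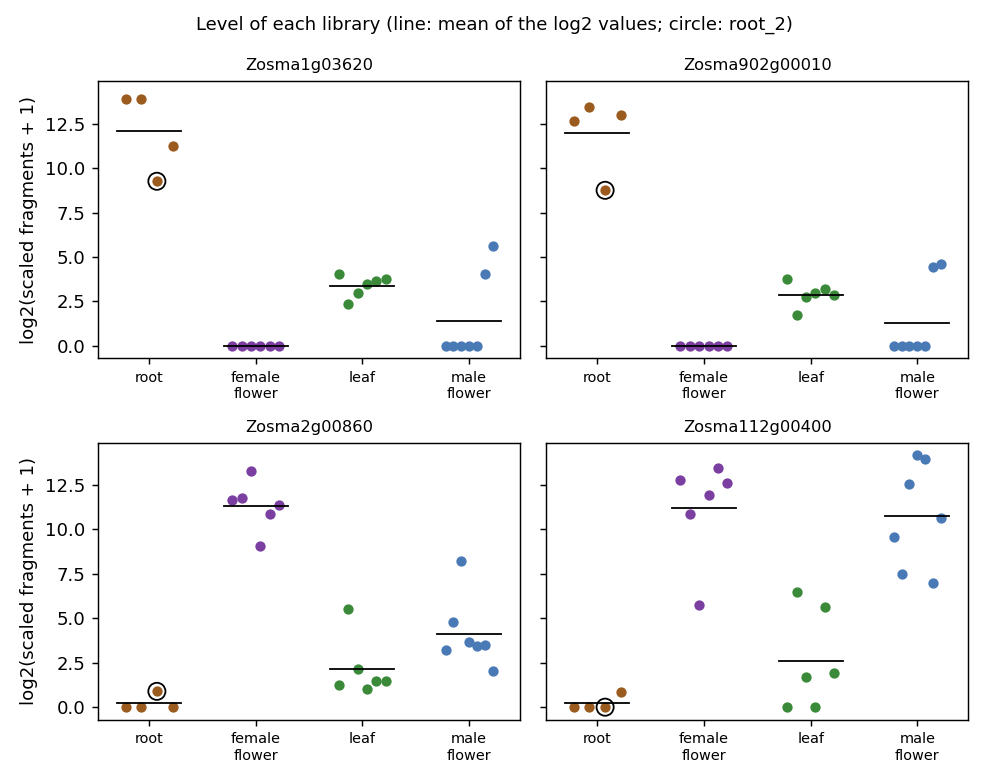
Points are libraries, on the log2(scaled fragments + 1) scale, for the 2 genes higher (top) and the 2 lower (bottom) in root, in root (n = 4), female flower (n = 6), leaf (n = 6) and male flower (n = 7), with a line at the mean of the log2 values and a circle around root_2. Zosma1g03620 and Zosma902g00010 are at 0 in every female library and lowest among roots in root_2, while Zosma112g00400 is high in flowers of both sexes.

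The genes of either direction took up a large part of each tissue's RNA. To avoid choosing genes on the library measured, the lists were made again without it. Genes higher in root held 34.7% ± 2.25 of the scaled fragments of root libraries (SD, n = 4) and 8.33% ± 1.15 of those of female libraries (n = 6). Averaged over the 3 roots other than root_2, the root share was 35.3% ± 2.42 (n = 3). In this and the next such averages root_2 is left out of the mean alone, and it still took part in choosing the genes. Genes lower in root held 6.38% ± 3.18 in root (n = 4) and 26.6% ± 1.03 in female flower (n = 6). Averaged over the roots other than root_2 they held 6.85% ± 3.72 (n = 3). The root values of these lower genes were 9.99% in root_0, 7.83% in root_1, 4.95% in root_2 and 2.74% in root_3. The range for root ended far below that for female flower, which was 25.0% to 27.7%. The genes at least 16-fold higher in root held 12.0% ± 2.03 in root (13.0% ± 0.721 over the roots other than root_2) and 0.303% ± 0.149 in female flower. Those at least 16-fold lower in root held 0.414% ± 0.280 in root (0.466% ± 0.318 over the roots other than root_2) and 9.36% ± 0.508 in female flower.

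The direction of calls varied with abundance. Levels between genes were compared as FPKM, fragments scaled to gene length and library size, and the tested genes were divided into 5 classes of equal size by the average of the root and the female mean. Genes called lower in root made up 38.1% of the lowest class (0.152 to 4.88 FPKM), then 28.8%, 20.8% and 16.5%, and 13.5% of the highest (39.8 to 5455 FPKM). Calls higher in root were 18.9% of the lowest class and 25.8% of the highest. Without root_2 the same shares were 35.6% and 12.1% for genes lower in root and 20.2% and 29.0% for genes higher in root. With libraries scaled to equal total fragments they were 43.5% and 18.6% for lower and 17.3% and 21.1% for higher. The excess of higher over lower calls in the highest class was thus smaller with that scaling, but remained. The classes use means that also enter the calls, so these shares are a description. The median FPKM of the genes higher in root was 29.5 in root and 2.73 in female flower. For the genes lower in root it was 2.81 in root and 13.7 in female flower, beside 13.4 and 12.9 over all tested genes. Without root_2 the medians were 30.5 in root and 2.90 in female flower for genes higher in root, and 2.79 and 13.5 for genes lower in root.

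**Figure D4:**
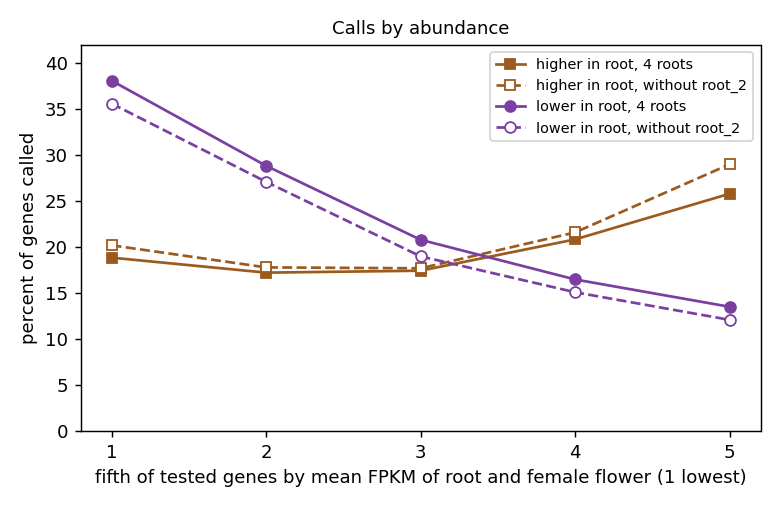
Lines give the percent of genes called in each of 5 equal classes of the tested genes by mean FPKM, higher in root (squares) and lower in root (circles), with all 4 roots (filled) and without root_2 (open, dashed). The share lower in root is 38.1% in the lowest class and 13.5% in the highest, and the share higher in root is 25.8% in the highest.

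Among the 100 genes with the highest mean FPKM in root, 63 were called higher in root and 2 lower, where 20.0% and 23.5% of all tested genes were. Among the 100 highest in female flower, 49 were called lower in root and 5 higher. The lists shared 30 genes. Without root_2 the counts were 72 higher and 2 lower among the first list, and 41 lower and 5 higher among the second. These lists were ranked on values that also enter the calls, so the counts are a description. Genes of either direction were close to the rest in length, as read from the ratio of scaled fragments to FPKM: the median was 0.941 of that of all tested genes for genes higher in root, and 0.994 for genes lower in root.

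The roots were not alike in how far they stood from female flower. Each root was left out of the fit in turn, and its level was read in the genes called from the other 3. In genes called higher in root, root_2 stood 1.83 above the female mean (median log2 difference), while the 3 roots that chose them stood 2.85 above. The left-out medians of root_0, root_1 and root_3 were 2.39, 2.51 and 3.34. Root_2 lay below all 6 female libraries for 8.26% of the 3428 genes called without it, and the other roots did so for 0.0319% to 0.312% of theirs. It had 0 fragments in 166 of those 3428 genes, 4.84%, where the other roots had 0 in 0.0639% to 0.813% of theirs. A different pair of roots stood nearer to female flower in the genes lower in root. There the left-out medians were -1.36 for root_0 and -1.53 for root_1, and -2.65 for root_2 and -2.69 for root_3.

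**Figure D5:**
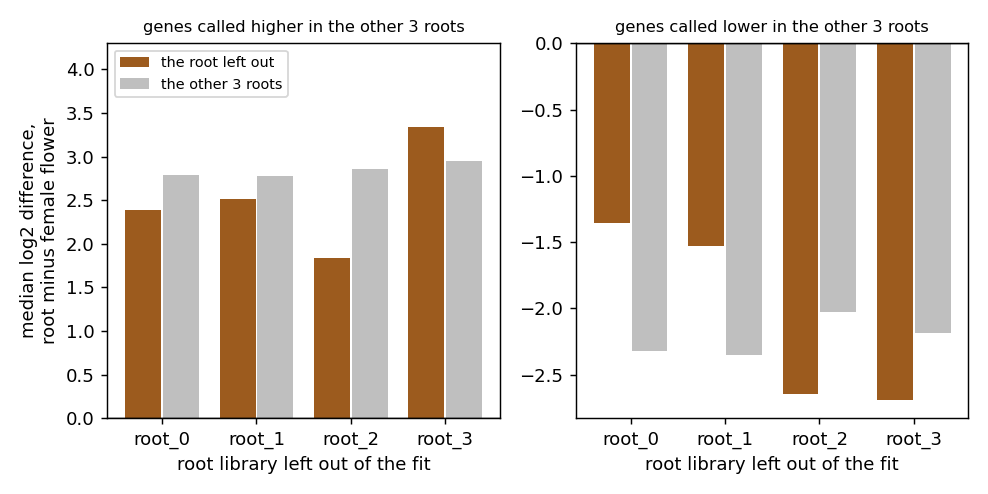
Bars give the median log2 difference from the female mean, over the genes called higher (left) or lower (right) in a fit without 1 root, for the root left out (brown) and the other 3 roots (grey). Root_2 is lowest among the left-out roots in the higher genes, at 1.83, and root_0 and root_1 are nearest to 0 in the lower genes, at -1.36 and -1.53.

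The shares held by genes enriched in other tissues also differed among roots. Leaf-enriched genes, 1287 genes at least 4-fold above flowers of both sexes in a fit that used no root, held 15.6% of the scaled fragments of root_2 and 6.33%, 6.76% and 10.2% of those of root_0, root_1 and root_3. In leaf itself they held 10.9% to 33.9%, a range that includes root_2. Without leaf_1 the leaf-enriched genes numbered 1486 and held 18.2% in root_2 and 7.25%, 7.82% and 11.7% in root_0, root_1 and root_3, against 21.2% to 38.4% in leaf, so root_2 was the highest root in both but lay below the leaf range here. Female-enriched genes, 1446 genes at least 4-fold above leaf and male flower in the same fit, held 7.10% in root_0, 6.32% in root_1, 2.49% in root_2 and 3.93% in root_3, against 13.0% to 17.2% in female flower. Without leaf_1 these were 1621 genes with 8.60%, 7.68%, 2.96% and 5.05% in root_0 to root_3. Male-enriched genes (2284) held 4.68% in root_2 and 6.82% to 7.42% in the other roots. On the female side, 1137 root-enriched genes, found without female libraries, held 2.76% to 3.15% (1333 genes and 3.97% to 4.64% without leaf_1), and leaf-enriched genes (1001) held 6.01% to 9.13% (1141 genes and 6.38% to 9.82% without leaf_1). The part of these genes in the calls was not tested.

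Leaf and male flower, which did not enter the main fit of root against female flower, show where the called genes stood elsewhere in the plant. Of the genes higher in root, 62.2% had their highest mean log2 level in root, 21.5% in leaf and 16.2% in male flower, and without leaf_1 57.8% in root and 26.9% in leaf. Without root_2 66.8% were highest in root and 17.8% in leaf. Of the genes lower in root, 62.1% were highest in female flower, 16.5% in leaf and 21.3% in male flower (60.2%, 19.9% and 19.9% without root_2). Over all tested genes 21.7% were highest in root, 28.0% in female flower, 21.3% in leaf and 29.0% in male flower, and the calls themselves raise the root and female shares of their own lists. Leaf against male flower shares no library with root against female flower. Its median log2 difference was 0.53 over the genes higher in root and -0.69 over those lower in root, beside -0.10 over all tested genes. Without leaf_1 these medians were 0.58, -1.09 and -0.19. With the lists called without root_2, they were 0.33, -0.41 and -0.10, so the medians of both lists of called genes were smaller in size. Leaf was above male flower for 60.7% of the genes higher in root and for 40.0% of those lower in root, beside 47.5% of all tested genes. These shares were 61.1%, 34.2% and 45.8% without leaf_1, and 56.6%, 43.9% and 47.4% without root_2. Across the 16198 genes the 2 differences correlated only weakly, with a Pearson r of 0.158, and of 0.0931 without root_2, and with r of 0.201 and 0.127 where leaf_1 was left out.

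Root stood apart from each stage of the female flower on its own. Root against the 3 early libraries called 2742 genes higher and 2714 lower, with a median standard error of 0.383. Root against the 2 late libraries called 2194 higher and 2009 lower, with a median standard error of 0.464. The counts without root_2 were 3354 and 2936 against early, and 3281 and 2633 against late female flower. These comparisons share the root libraries, and the difference between the counts was not tested. Medians by stage were also read in the genes called from all 6 female libraries. Those calls used the same values, so the medians are a description and no support for a difference from either stage. The genes higher in root had a median log2 difference of 2.97 from early, 2.73 from late and 2.49 from the library of conflicting stage. Those lower in root had -2.13, -2.28 and -2.24 in the same order. Without root_2 the medians were 2.99, 2.79 and 2.57 for genes higher in root and -1.95, -2.12 and -2.09 for genes lower in root. A single gene was called higher in root than 1 stage and lower than the other. Without early_3, the library of conflicting stage, 3165 genes were higher and 3548 lower in root. Chi-square per degree of freedom, a measure of difference beyond sampling noise, was 29.2 between early_3 and late_0 and 38.8 between early_3 and late_1. Between early_3 and early_0, early_1 and early_2 it was 128, 130 and 114. So early_3 was nearer to the late libraries, as in its tissue label, but its stage was not tested.

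The number of genes with fragments was not shown to differ with all roots. Without root_2 it was higher in root at thresholds of 3 fragments and 1 fragment. At a value of at least 10 it was not shown to differ. Roots had 15152 to 16481 genes with at least 3 fragments and female flowers 15773 to 16218, with means of 16020 ± 622 (SD, n = 4) and 15969 ± 154 (n = 6). The difference of 51.2 genes gave p = 0.881 (exact permutation test, two-sided, 210 orderings, 0.881 after adjustment over 2 measures). Root_2, the shallowest library, had the fewest. Without it the difference was 341 genes (exact permutation p = 0.0476, n = 3 and 6). For genes with at least 1 fragment the difference was 195 (exact permutation p = 0.371) with all roots and 428 without root_2 (exact permutation p = 0.0119, the smallest that 3 against 6 can give). For genes with a value of at least 10 it was -68.4 (exact permutation p = 0.857) with all roots and 236 without root_2 (exact permutation p = 0.274). The p-values without root_2 were not adjusted. The 10 most abundant genes of a library held 4.22% ± 0.231 of its scaled fragments in root (n = 4) and 4.71% ± 0.572 in female flower (n = 6), with an exact permutation p of 0.148 (0.295 adjusted over 2). For the 100 most abundant the sign turned, with 16.9% ± 0.808 in root and 15.5% ± 0.906 in female flower (exact permutation p = 0.0476, and 0.0952 without root_2).

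Identifiers with the prefix ZosmaC and ZosmaM held smaller shares of root than of most female libraries. Of 92 ZosmaC identifiers 27 passed the filter, and of 104 ZosmaM identifiers 41 did. All of these passed it on the female libraries, and 2 of each prefix would have passed on the roots alone, so their calls were fixed in part by the filter and are not counted here. Over all identifiers, ZosmaC genes held 0.000946% to 0.00361% of a root library and 0.0358% to 0.644% of a female library, without overlap. ZosmaM genes held 0.00320% to 0.0173% in root and 0.0142% to 0.418% in female flower, where the ranges met. The 3 roots other than root_2 held 0.00138% to 0.00361% in ZosmaC genes and 0.00320% to 0.0173% in ZosmaM genes. Among the female libraries early_0 and late_0 were lowest for both.

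Genes next to each other in identifier were called in the same direction more often than tested neighbours in general, as a description with no test. Identifiers of the form Zosma, a number, g and a second number were ordered by those numbers, and neighbours share the first number and follow directly in the second. Of the tested neighbours of genes higher in root, 25.1% were higher in root, beside 19.6% of all tested neighbours. Of the tested neighbours of genes lower in root, 29.4% were lower in root, beside 23.2%. Runs of at least 3 successive identifiers numbered 104 for genes higher in root, with 341 genes, and 159 for genes lower in root, with 531. The longest runs held 7 genes higher and 6 genes lower in root. How many runs the shares of called genes alone would give was not worked out, so the runs are a count without a reference. Without root_2 the neighbour shares were 26.9% beside 20.9% for higher and 27.5% beside 21.5% for lower, with 131 runs of 425 genes higher and 135 runs of 448 genes lower in root. How reads that match near-identical copies were counted is unknown here, so values of such copies are uncertain, and their part in these runs was not tested.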

How the data were processed

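Messenger RNA of 23 libraries was selected with oligo(dT) and sequenced as paired ends, per the labels' protocols. TopHat2 2.0.12, Cuffnorm 2.2.1 and Cuffdiff 2.2.1 are listed, with neither role nor order, in the submitters' processing notes. Genome build, annotation and strand setting are not given in the sources used. The table the authors deposited as counts holds a signal, fragments times 1 factor per library. Of its non-zero values up to 1000 steps, 99.7% in each library compared were whole multiples of that factor to within 0.01. Residues near 0 were not, so the planned count models were not run. The factor gave depth, floors and intervals. The authors' deposited FPKM table served for levels between genes and as an alternative.

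The filter was a value of 10 or more in 2 or more of the 10 libraries. The main fit was limma 3.58.1 (R 4.3.3, eBayes with trend and robust settings) on log2(value + 1) of these libraries alone. Folds on that scale understate differences of low genes. No pair of libraries within a tissue differed as little as sampling noise (smallest chi-square per degree of freedom 21.3). Genes named are the 2 per direction with the largest fold, called with and without root_2, with groups that do not overlap and a mean of at least 100 in the higher group. Members, lists and tests were chosen with earlier results of these data known. The labels give no batch. The fit was tested on simulated data. Tables and figures were made in Python 3.11.15 with matplotlib 3.10.9, pandas 2.3.3, numpy 2.4.6 and scipy 1.17.1.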

Additional observations from a re-analysis of the deposited data

Results flagged for a closer look

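In 26 sets of values from the 4 roots or the 6 female libraries, 4 had a lowest or highest library far from the others by Dixon's 95% limit. Chance gives about 1 in 20 for continuous values, but 2 of the 4 are sets of 3 zeros and 1 fragment, which pass the limit whatever the value. Zosma2g00860 had 0.855 scaled fragments in root_2 and 0 in the other roots, and Zosma112g00400 had 0.814 in root_3 and 0 in the others, a single fragment in each case. Zosma2g00860 was at 9857 scaled fragments in early_2, against 531 to 3462 in the other 5 female libraries. Early_0 held 8.20% of its scaled fragments in 2537 male-enriched genes, found without female libraries, against 6.18% to 6.68% in the other 5.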

How the results depend on the processing

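The counts of genes higher and lower in root stayed within 1.5 times of the reported ones in all 22 alternatives run for each, at 2734 to 4512 higher and 3060 to 4811 lower. These included other pseudocounts, filters and scalings, FPKM, library weights, all libraries in 1 model and each library left out. Library weights gave 3600 higher and 3517 lower. Those weights were 22.6 for root_1 and 1.30, 0.0878 and 0.254 for root_0, root_2 and root_3, so the root side of that fit rested mostly on root_1. The 16-fold counts depended on the scale: with a pseudocount of 10 they were 558 higher and 256 lower, with FPKM 534 and 235, and with a pseudocount of 0.1 861 were lower. Scaling to equal total fragments put the median over all tested genes at -0.32 in log2, in place of -0.06, and called 2734 higher and 4649 lower, or 37.0% higher in place of 46.0%. The difference in genes with at least 3 fragments ran from -102 to 341 with 1 library left out, was -68.4 for genes with a value of at least 10, and turned below 0 without root_0 or root_1. The share of the most abundant genes differed by 1.43 percentage points with 100 genes in place of -0.488 with 10. With the number in the title as a replicate block, 3167 genes were higher and 3490 lower. Same-numbered libraries share only a number: their deviations correlated at -0.189 to 0.104. Of the named genes, only Zosma112g00400 lost its call, with voom weights (log2 fold change -12.22, adjusted p = 0.0678, limma), which called 3013 genes higher and 3621 lower. Leaf against male flower kept its sign over the called genes with any 1 leaf or male library left out (0.48 to 0.59 for those higher in root, -1.09 to -0.47 for those lower). Count models were not run, because some values are not whole fragments. At these depths a value of 0 allows up to 2.56 scaled fragments, in root_2.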
